A study of Homo sapiens with 2 samples.

Results

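Protein-folding genes of the cytosol were compared between 2 arrays of the human colorectal adenocarcinoma line HT-29. A set of 38 genes was chosen by symbol, covering the chaperonin CCT, prefoldin, the HSP70 and HSP90 chaperones with their co-chaperones, the small heat shock protein HSPB1 and the heat shock factor HSF1. A member was measured where at least 1 probe set in the platform annotation named it and no other gene, which held for 34 of the 38 members, out of 19775 genes in all. These 34 genes had 70 probe sets, of which 61 had a signal above 50 on at least 1 array. The probe sets of TCP1, HSPA8 and PFDN6 also name small RNA genes and AHSA1 is not in the annotation, so these 4 members are named only.

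One array held RNA of cells transfected with a pool of siRNAs against MYC, and the other held RNA of control cells. The treatment field of the control sample reads None, while the protocol in the labels and the methods of the study describe a non-targeting siRNA pool, and the array is called control siRNA here. Each siRNA was given at 20 nM for 24 h and the cells were used after 48 h, and whether the 48 h include the transfection is not stated. Since each condition has 1 array, no difference could be set against replicates or given a p-value. A pooled reading of this kind cannot tell fewer transcripts per cell from fewer cells that make them.

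MYC, the targeted gene, had a signal of 1639.9 with MYC siRNA and 1963 with control siRNA. The log2 ratio was -0.26 on its 1 probe set, and -0.16 after loess, a correction for the trend of the ratio with signal. The first value is beyond the SD of 0.20 between probe sets of a bright gene, described below, and the second is within it. Of all genes 24.3% were lower by more than the SD of their signal class, and 22.9% after loess. The RNA signal alone therefore does not set MYC apart. The study reports MYC knockdown with immunoblots of the protein, which the RNA signal does not measure. Curated MYC target genes are also reported there as lower with MYC siRNA. Signals were above 50 in 16571 probe sets with MYC siRNA and 16074 with control siRNA, and the ratio of 3' to 5' signal of ACTB, a sign of RNA quality, was 1.14 with MYC siRNA and 1.16 with control siRNA. Of 12 markers of colon epithelium 10 were above 50 on at least 1 array, CDH17 only with MYC siRNA (55.0, and 25.7 with control siRNA). CDX1 and CDX2 were below 50 on both arrays. The summed signal of the 12 was 43018 with MYC siRNA and 37154 with control siRNA. Of the 10, 7 were higher with MYC siRNA and 3 were lower (EPCAM, KRT18 and CLDN3). Among all genes 53.5% were higher and 46.5% lower. Of 12 markers of blood, stromal and endothelial cells only COL1A1 was above 50, and their summed signal was 164 with MYC siRNA and 193 with control siRNA. The part of these differences in the results was not tested.

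Newly made proteins are folded in the cytosol by chaperones that act in sequence. HSP70 proteins, recruited by J proteins and reset by nucleotide exchange factors, hold short stretches of unfolded chain, and HSP90 with its co-chaperones acts on kinases, steroid receptors and other partly folded clients. Prefoldin passes actin and tubulin to CCT, also called TRiC, a closed chamber made of a pair of rings of different subunits. HSF1 is the transcription factor that raises many of these genes under heat and proteotoxic stress, by binding repeats of a short motif in their promoters. MYC, a transcription factor that favours cell growth, binds the E-box motif CACGTG.

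Promoter letters are shown for the members whose upstream sequence held an element of either factor, because MYC was the target of the siRNA and HSF1 is the known regulator of heat shock genes, and for 1 CCT gene as a contrast. RefSeq windows of GRCh38.p14, spanning 250 bases before and 50 bases after a transcript start, matched 28 of the 34 measured members with 42 windows. CCT6A, PFDN2, HSPA14, ST13, FKBP4 and HSF1 had no matched window, so their promoters were not searched. The heat shock element was searched as 3 alternating units, GAANNTTCNNGAA or TTCNNGAANNTTC, which are the same element read on opposite strands, and overlapping matches are capitalized as 1 run. It was in 5 of the 42 windows, those of CHORDC1, DNAJA1, DNAJB6, HSP90AA1 and HSP90AB1, against 0.49% of all 35116 windows. The match of DNAJA1 lies after its start and is not printed. CACGTG, which reads the same on both strands, was in 1 of the 42 windows, 1 of the pair of FKBP5, against 7.26% of all windows. None of the 8 windows of the CCT genes held either element. A CCAAT box, searched as CCAAT or ATTGG, was in 13 of the 42 windows and in 3 of the 8 CCT windows, against 34.6% of all windows. In the 250 bases before each start, written 5' to 3' on the strand of the gene, capitals mark the element named.
CHORDC1, heat shock element, chr11:90223050-90223299, minus strand: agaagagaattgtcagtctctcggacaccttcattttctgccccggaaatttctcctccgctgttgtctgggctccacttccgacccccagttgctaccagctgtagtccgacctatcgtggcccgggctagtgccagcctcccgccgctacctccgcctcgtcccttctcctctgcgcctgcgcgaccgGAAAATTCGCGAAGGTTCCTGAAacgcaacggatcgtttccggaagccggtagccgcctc
DNAJB6, heat shock element, chr7:157336754-157337003, plus strand: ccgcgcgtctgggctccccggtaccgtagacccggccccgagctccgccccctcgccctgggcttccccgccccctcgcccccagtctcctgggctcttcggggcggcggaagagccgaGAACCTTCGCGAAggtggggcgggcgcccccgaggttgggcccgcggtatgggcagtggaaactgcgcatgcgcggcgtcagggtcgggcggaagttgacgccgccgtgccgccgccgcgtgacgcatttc
HSP90AA1, heat shock element, chr14:102087045-102087294, minus strand: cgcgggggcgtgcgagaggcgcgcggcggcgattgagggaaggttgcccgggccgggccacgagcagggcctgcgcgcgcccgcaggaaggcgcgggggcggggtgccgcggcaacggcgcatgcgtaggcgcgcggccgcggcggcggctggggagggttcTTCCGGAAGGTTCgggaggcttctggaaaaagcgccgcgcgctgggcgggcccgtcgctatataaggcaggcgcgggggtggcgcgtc
HSP90AB1, heat shock element, chr6:44247693-44247942, plus strand: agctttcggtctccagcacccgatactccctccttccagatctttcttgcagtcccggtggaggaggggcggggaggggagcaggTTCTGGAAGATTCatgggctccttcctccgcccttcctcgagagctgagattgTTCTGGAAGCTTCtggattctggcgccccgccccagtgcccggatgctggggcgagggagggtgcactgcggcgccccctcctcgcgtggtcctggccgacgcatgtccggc
FKBP5, E-box, chr6:35688916-35689165, minus strand: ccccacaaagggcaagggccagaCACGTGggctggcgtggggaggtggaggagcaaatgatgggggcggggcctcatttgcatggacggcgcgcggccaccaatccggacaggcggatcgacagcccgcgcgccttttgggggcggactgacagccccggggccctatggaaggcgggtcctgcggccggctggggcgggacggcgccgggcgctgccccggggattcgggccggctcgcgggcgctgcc
CCT3, CCAAT box, chr1:156338293-156338542, minus strand: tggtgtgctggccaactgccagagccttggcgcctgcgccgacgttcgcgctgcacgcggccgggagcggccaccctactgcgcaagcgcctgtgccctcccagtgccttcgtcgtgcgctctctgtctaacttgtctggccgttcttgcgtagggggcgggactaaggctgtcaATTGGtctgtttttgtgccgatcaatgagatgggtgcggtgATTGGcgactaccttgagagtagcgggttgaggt
A match of letters is a description of the sequence and not a bound site. Lack of a match does not show lack of a site, since only these letter patterns within these windows were searched. HSP90AB1 held 2 separate elements, and the 3 overlapping matches of CHORDC1 form 1 longer repeat. The 5 genes with the heat shock element had log2 ratios of -0.64 (CHORDC1), -0.50 (HSP90AB1), -0.40 (DNAJB6), -0.30 (DNAJA1) and -0.27 (HSP90AA1). All 5 were lower with MYC siRNA, as were 32 of the 34 measured members. Whether the element bears on the ratios was not tested.

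A floor of 50 was placed under the signals, following the methods, before ratios were formed. A gene takes the value of its brightest probe set, and all log2 ratios divide MYC siRNA by control siRNA, so that a negative value means a lower signal with MYC siRNA. Of the 34 members, 32 were lower and 2 were higher with MYC siRNA, against 46.5% lower and 53.5% higher among all 8922 genes above 50. The median log2 ratio was -0.38 over the members and 0.03 over all genes. A log2 ratio of -0.32 or less was found in 21 members, against 17.0% of all genes. By at least 1.5-fold, 3 members were lower, FKBP4, CHORDC1 and DNAJC2, against 5.72% of all genes, and none was higher, against 10.4%. The members were therefore mostly lower by less than 1.5-fold, and 3 genes are too few to tell their share from that of all genes. Of the 61 probe sets of the members 56 were lower, against 49.2% of all probe sets. By the rule of the methods, none of the 61 was a DOWN DEG (a ratio of at most 0.5), against 0.607% of all 17127 probe sets, and none was an UP DEG (a ratio of at least 2), against 2.19%.

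Most of these genes are bright, which bears on the ratio. Bright genes were slightly lower than dim ones across the whole array, the median being -0.10 in the brightest and 0.15 in the dimmest of 5 groups of equal size by signal (log2). Of the 34 members 24 lie in the brightest group, where 61.6% of genes were lower. After loess on mean signal, which removes this trend, 31 members were lower, against 46.4% of all genes, and their median was -0.32. A log2 ratio of -0.32 or less was found after loess in 17 members, against 16.8% of all genes. By at least 1.5-fold only FKBP4 was lower after loess, against 5.53%. The median over the members stayed below that of all genes with the trend removed.

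**Figure D1:**
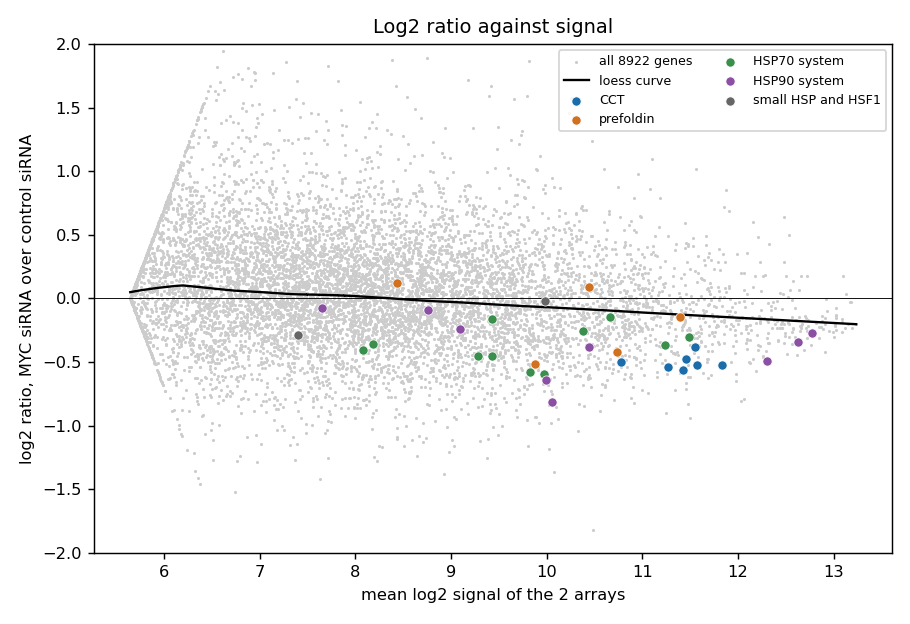
Log2 ratio, MYC siRNA divided by control siRNA (y axis), against the mean log2 signal of the 2 arrays (x axis) for 8922 genes above 50 (grey) and the 34 chaperone genes (colours by group), with the loess curve in black. Of the genes, 10 lie beyond the y axis; 24 chaperone genes are in the brightest of 5 equal groups, and the CCT genes form a tight cluster below the curve.

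The spread between probe sets of the same gene gives a scale for these differences, though it leaves out the variation between cultures. Its SD on the log2 scale was 0.27 for dim genes, 0.23 for genes of middle signal and 0.20 for bright genes. Of the 34 members, 26 were lower by more than the SD of their signal class, against 24.3% of all genes. After loess this held for 21 members, against 22.9% of all genes, and no longer for HSPA4 (-0.18), DNAJA1 (-0.17), HSP90AA1 (-0.09), PTGES3 (-0.17) and CDC37 (-0.21). Of 17 members with 2 or more probe sets above 50, 14 were lower in every one of them, against 34.3% of all genes with 2 or more. The exceptions were PFDN5, higher in both, and ST13 and UNC45A, whose probe sets go both ways.

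The CCT subunits were the most uniform of the 4 groups. All 7 measured subunits were lower with MYC siRNA, with log2 ratios between -0.57 and -0.38 and a median of -0.52, a 1.44-fold lower signal. Of all genes 46.5% were lower, and of the brightest group, which holds all 7, 61.6%. CCT4, the delta subunit, had a signal of 2260.5 with MYC siRNA and 3345 with control siRNA (log2 ratio -0.57). CCT3, the gamma subunit, had 2046 with MYC siRNA and 2977 with control siRNA (-0.54). CCT2, the beta subunit, had 3038 with MYC siRNA and 4379 with control siRNA (-0.53). These 3 genes were lower by nearly the same factor, and a second probe set of CCT2 gave -0.50. CCT6A, the zeta subunit, had 2549 with MYC siRNA and 3659.6 with control siRNA (-0.52), and -0.57 on a second probe set. CCT7, the eta subunit, had 1478 with MYC siRNA and 2094 with control siRNA (-0.50). CCT8, the theta subunit, had 2384 with MYC siRNA and 3326 with control siRNA (-0.48). CCT5, the epsilon subunit, was the least changed, at 2619 with MYC siRNA and 3416.5 with control siRNA (-0.38), and its dim second probe set gave -0.13. The SD of the 7 log2 ratios was 0.06, below the 0.36 among all genes of the brightest group. The 0.20 between probe sets of 1 bright gene is an unlike measure, since it includes the dimmer probe sets of such genes. No CCT gene reached 1.5-fold, the nearest being CCT4 at 1.48-fold. After loess the 7 ratios lay between -0.44 and -0.25 with a median of -0.39.

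**Figure D2:**
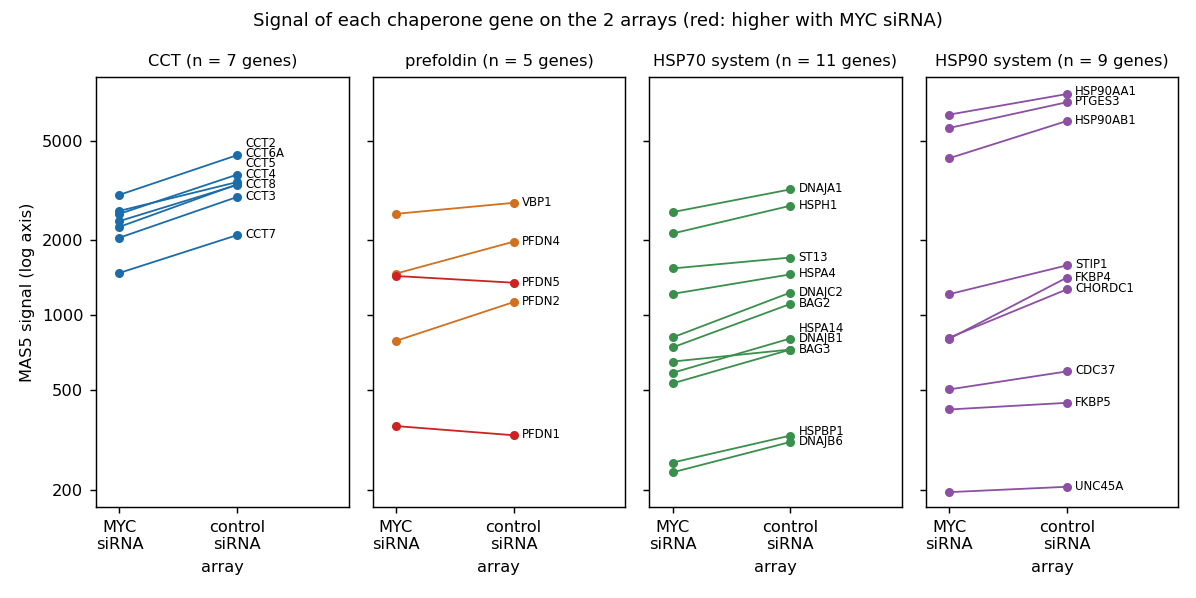
MAS5 signal on a log axis (y) of each chaperone gene with MYC siRNA (left point) and control siRNA (right point), in 4 groups. Blue, orange, green and purple lines mark genes lower with MYC siRNA, and the red lines of PFDN1 and PFDN5 mark those that were higher; all 7 CCT lines slope the same way.

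The prefoldin subunits were not uniform. Of 5 measured subunits 3 were lower and 2 higher with MYC siRNA, against 46.5% lower and 53.5% higher among all genes. These 5 genes are too few to tell their share from that of all genes. Their median log2 ratio was -0.15. PFDN2 had a signal of 789 with MYC siRNA and 1129 with control siRNA (log2 ratio -0.52). PFDN4 had 1469 with MYC siRNA and 1972 with control siRNA (-0.42), and a dimmer probe set gave -0.73. These subunits of the beta type were lower by about as much as the CCT genes, while the other measured subunit of that type was not lower. PFDN1 had 359.7 with MYC siRNA and 330.5 with control siRNA (0.12). PFDN5, an alpha-type subunit also known as MM-1 for its binding to the MYC protein, had 1437 with MYC siRNA and 1350.2 with control siRNA (0.09), and 0.05 on a second probe set. VBP1, the other alpha-type subunit, which also binds the VHL tumour suppressor, had 2549 with MYC siRNA and 2822 with control siRNA (-0.15). PFDN1, PFDN5 and VBP1 differed by less than the SD of their signal class, and the direction of VBP1 turned to 0.01 after quantile normalization, which left 2 subunits lower and 3 higher. The SD over the 5 prefoldin genes was 0.29, against 0.15 over the HSP70 system and 0.25 over the HSP90 system.

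**Figure D3:**
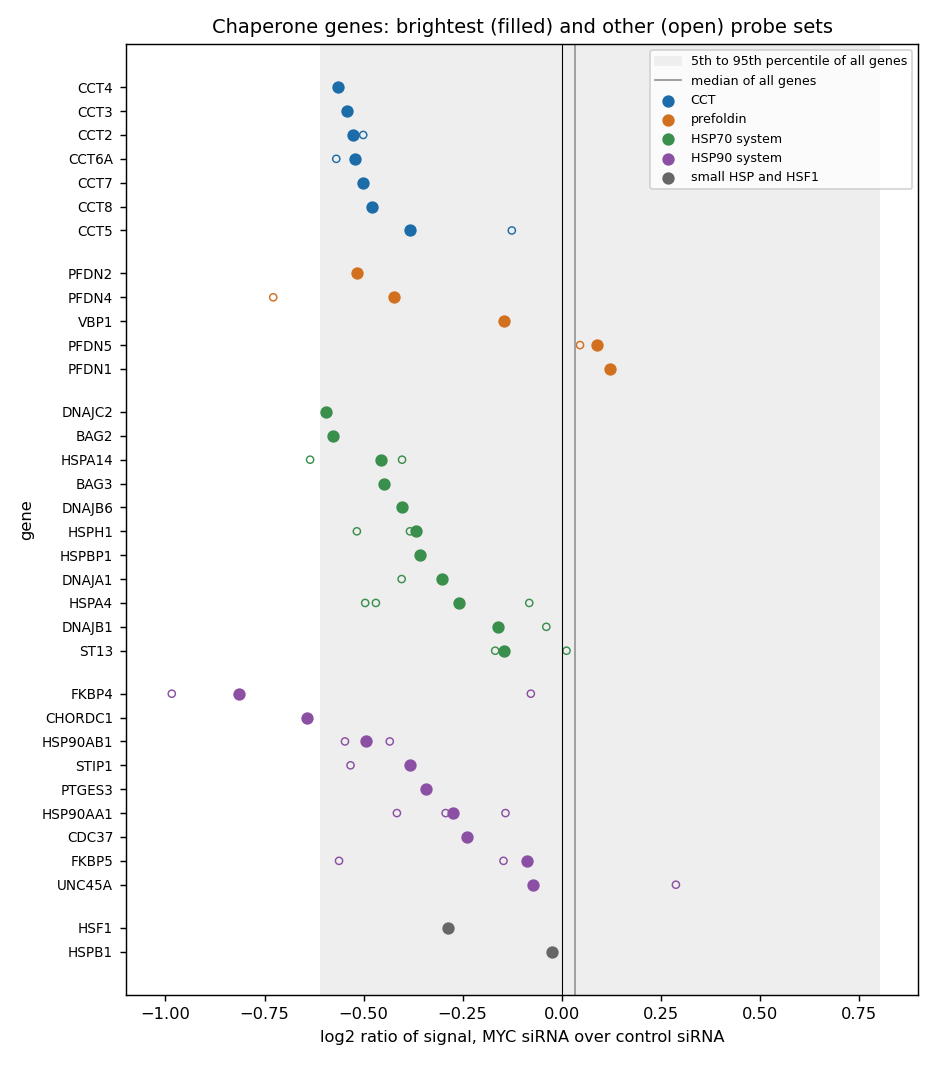
Log2 ratio, MYC siRNA divided by control siRNA (x axis), of the 34 chaperone genes (y axis), ordered within groups. Filled points are the brightest probe set of a gene, open points its other probe sets above 50, the grey line is the median of all genes (0.03) and the grey band runs from their 5th to their 95th percentile (-0.61 to 0.80); only FKBP4 and CHORDC1 have a filled point left of the band.

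In the HSP70 system all 11 measured genes were lower with MYC siRNA, against 46.5% of all genes. Their log2 ratios lay between -0.60 and -0.15, with a median of -0.37. HSPA14, an unusual HSP70 protein, and DNAJC2, its J protein partner, form a complex at the ribosome that meets the emerging chain. DNAJC2 had a signal of 815 with MYC siRNA and 1232 with control siRNA, a log2 ratio of -0.60 or 1.51-fold lower. HSPA14 had 588 with MYC siRNA and 807 with control siRNA (-0.46), and its other probe sets gave -0.40 and -0.63. Both genes of this complex were thus lower, with DNAJC2 resting on 1 probe set above 50.

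The exchange factors of the HSP110 family showed smaller differences. HSPH1 had a signal of 2126 with MYC siRNA and 2745 with control siRNA (log2 ratio -0.37), with -0.52 and -0.38 on its other probe sets. HSPA4 had 1218 with MYC siRNA and 1458 with control siRNA (-0.26). The 4 probe sets of HSPA4 were all lower but ranged from -0.50 to -0.08, so the size of its difference depends on the probe set.

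Among the other J proteins, DNAJB6, which keeps aggregation-prone chains soluble, had a signal of 235 with MYC siRNA and 310.5 with control siRNA (log2 ratio -0.40). DNAJA1, a general J protein of the cytosol, had 2589.9 with MYC siRNA and 3193 with control siRNA (-0.30), and -0.40 on a second probe set. DNAJB1, a J protein strongly raised by heat shock, had 652 with MYC siRNA and 729 with control siRNA (-0.16). The value of DNAJB1 is smaller than the SD of its signal class, and its second probe set gave -0.04.

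Of the HSP70 cofactors, BAG2, which inhibits the ubiquitin ligase CHIP on HSP70, had a signal of 743 with MYC siRNA and 1109 with control siRNA (log2 ratio -0.58). BAG3, an exchange factor that links HSP70 to autophagy, had 533 with MYC siRNA and 728 with control siRNA (-0.45). HSPBP1, another exchange factor, had 257 with MYC siRNA and 329 with control siRNA (-0.36). These factors were lower by more than the SD of their signal class. ST13, the HSP70-interacting protein HIP, had 1540.2 with MYC siRNA and 1703 with control siRNA (-0.15), and its other probe sets gave -0.17 and 0.01.

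In the HSP90 system all 9 measured genes were lower with MYC siRNA, against 46.5% of all genes. Their log2 ratios lay between -0.81 and -0.07, with a median of -0.34. Of the chaperones themselves, HSP90AB1, the constitutive form, had a signal of 4259 with MYC siRNA and 6003 with control siRNA (-0.50). HSP90AA1, the form that heat shock raises, had 6369 with MYC siRNA and 7699 with control siRNA (-0.27). The 3 probe sets of HSP90AB1 lay between -0.55 and -0.43 and the 4 of HSP90AA1 between -0.42 and -0.14. These ranges nearly met, with a gap small beside the SD of 0.20 between probe sets of bright genes. Both genes have close copies and pseudogenes that their probe sets might also read, which was not tested. Both lie among the brightest genes on the arrays, and after loess they were at -0.33 (HSP90AB1) and -0.09 (HSP90AA1).

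The largest difference of any member was that of FKBP4, also called FKBP52, an immunophilin that aids steroid receptors in the HSP90 complex. Its signal was 805 with MYC siRNA and 1415 with control siRNA, a log2 ratio of -0.81 or 1.76-fold lower. A second probe set had 538 with MYC siRNA and 1064.5 with control siRNA, a ratio of 0.505, just short of a DOWN DEG. Another, near the floor, had 17.4 with MYC siRNA and 52.8 with control siRNA, which is a log2 ratio of -0.08 with the floor of 50. Both brighter probe sets can bind several transcripts, and of all genes only 1.74% had a ratio as low as that of FKBP4. Its paralog FKBP5, also called FKBP51, a glucocorticoid-induced gene that acts on the same receptors in the opposite way, differed much less, at 419 with MYC siRNA and 446 with control siRNA (-0.09). The dimmest of the 3 probe sets of FKBP5 gave -0.56 and the remaining one -0.15.

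CHORDC1, a zinc-binding HSP90 co-chaperone, was next, with a signal of 813 with MYC siRNA and 1269.5 with control siRNA (log2 ratio -0.64, 1.56-fold lower). This value rests on 1 probe set above 50, which can bind several transcripts. STIP1, or HOP, the adaptor that joins HSP70 to HSP90, had 1215 with MYC siRNA and 1584 with control siRNA (-0.38), and -0.53 on a second probe set. PTGES3, or p23, which stabilizes the closed HSP90 dimer, had 5630.0 with MYC siRNA and 7139 with control siRNA (-0.34). CHORDC1 and STIP1 were lower by more than the SD of bright genes with and without loess, while PTGES3 was at -0.17 after loess and -0.16 after quantile normalization, within that SD. CDC37, which brings kinases to HSP90, had 504 with MYC siRNA and 596 with control siRNA (-0.24). UNC45A, a myosin chaperone, had 195 with MYC siRNA and 205 with control siRNA (-0.07), while a second probe set gave 0.29, so that its direction is not settled.

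HSF1 had a signal of 152 with MYC siRNA and 186 with control siRNA (log2 ratio -0.29) on 1 probe set above 50. HSPB1, or HSP27, had 1006 with MYC siRNA and 1024 with control siRNA (-0.02), a difference within the SD between probe sets, and was at 0.04 after loess and after quantile normalization.

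Between groups, the medians were ordered CCT (-0.52), HSP70 system (-0.37), HSP90 system (-0.34) and prefoldin (-0.15). Genes of a group are not replicates, and the order of the groups was not tested. The CCT median moved to -0.39 after loess and -0.40 after quantile normalization, next to -0.37 and -0.39 for the HSP70 system. The median of the HSP90 system was -0.21 after loess and that of prefoldin was -0.02.

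**Figure D4:**
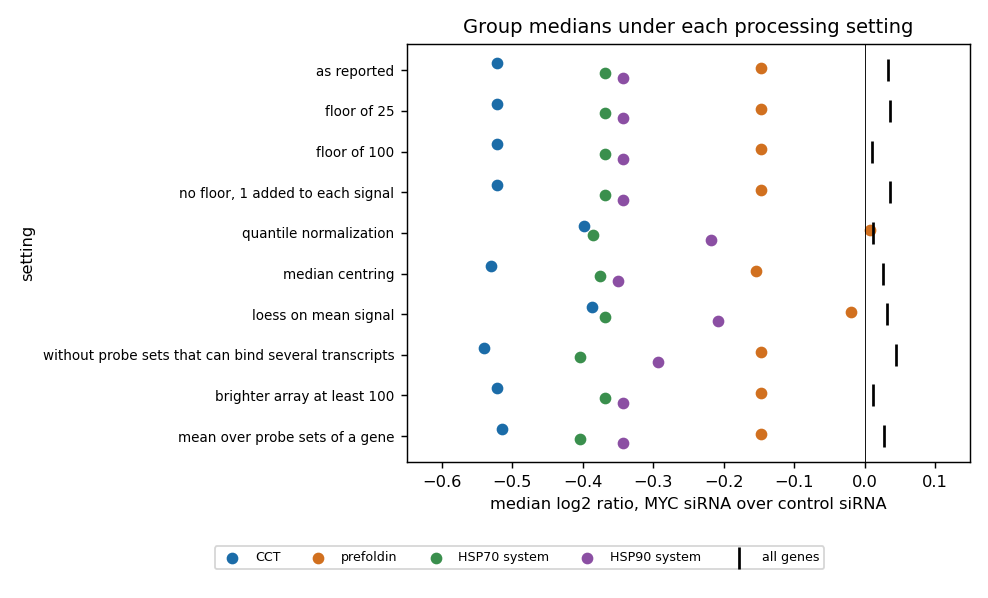
Median log2 ratio, MYC siRNA divided by control siRNA (x axis), of the CCT, prefoldin, HSP70 and HSP90 groups (coloured points) and of all genes (black bars) under 10 processing settings (y axis). The CCT points are leftmost in every setting shown, between -0.54 and -0.39, and the prefoldin points lie nearest to all genes.

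Further genes of cytosolic folding had a smaller median difference than the members as a whole. Of 27 further cytosolic chaperones and co-chaperones above 50, 21 were lower and 6 higher with MYC siRNA, against 46.5% lower among all genes. The median log2 ratio of the 27 was -0.13. Against 5.72% lower and 10.4% higher by at least 1.5-fold among all genes, 2 of the 27 were lower and none higher. These were HSPA4L, another HSP110-type protein, at 228 with MYC siRNA and 384 with control siRNA (-0.75), and TOMM34, a co-chaperone that binds HSP70 and HSP90, at 686 with MYC siRNA and 1106 with control siRNA (-0.69). The heat-inducible HSPA6 was below 50 on both arrays, and HSPA1A and HSPA1B share probe sets and are not reported.

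Among 14 cofactors of CCT and prefoldin, tubulin-folding factors and subunits of R2TP, an HSP90 partner complex, 10 were lower and 4 higher (median -0.14). Of all genes 46.5% were lower with MYC siRNA. Against 5.72% of all genes, 4 of the 14 were lower by at least 1.5-fold, among them both ATPases of R2TP. RUVBL1 had a signal of 492 with MYC siRNA and 853 with control siRNA (log2 ratio -0.79), and RUVBL2 had 1232 with MYC siRNA and 1972 with control siRNA (-0.68). URI1, a prefoldin-like scaffold, had 538 with MYC siRNA and 811 with control siRNA (-0.59), though 1 of its 3 probe sets gave 0.07. PDCL, a phosducin-like helper of CCT, had 87.1 with MYC siRNA and 137 with control siRNA (-0.65), and its other probe set gave 0.14. Of 15 CCT clients above 50, such as actins, tubulins and WD-repeat proteins, 9 were lower and 6 higher (median -0.14), and none differed by 1.5-fold. After loess the median of the clients was 0.03, with 6 of the 15 lower, against 46.4% of all genes.

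Chaperones of other compartments are given for comparison. Of 10 mitochondrial chaperones 9 were lower (median log2 ratio -0.46), and of 14 chaperones of the endoplasmic reticulum 13 were lower (median -0.24). The share of all genes lower was 46.5%. The mitochondrial HSP90 protein TRAP1 had a signal of 685 with MYC siRNA and 1307 with control siRNA (-0.93), and HSPA5, the HSP70 protein of the endoplasmic reticulum, had 2234 with MYC siRNA and 3541 with control siRNA (-0.67). The exchange factor GRPEL1 (-0.85), the co-chaperonin HSPE1 (-0.79) and CRELD2, a protein of the endoplasmic reticulum (-0.65), were also lower by at least 1.5-fold. By that fold 3 of the 10 and 2 of the 14 were lower, against 5.72% of all genes. After loess 9 of the 10 (median -0.38) and 11 of the 14 (median -0.11) were lower, against 46.4% of all genes. Whether these lists differ from the cytosolic members was not tested.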

How the data were processed

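RNA of HT-29 cells was measured on GeneChip Human Genome U133 Plus 2.0 arrays, 1 per condition. The deposited intensity values are linear MAS5 signals, made by the authors with affy 1.40.0 which sets the mean target level of an array to 100; the mean after trimming 2% at each end was 100 on both arrays. Beyond this scaling to a common level, they carry no floor, logarithm or further normalization between arrays. The platform annotation gives 1 gene for 41097 of 54675 probe sets, several for 1801 and no entry for 11777. Symbols were updated by gene identifier to RefSeq of GRCh38.p14 (19734 of 19775 genes matched).

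Signals under 50 were set to 50 as in the study's methods, and log2 ratios (MYC siRNA divided by control siRNA) were formed for probe sets above 50 on at least 1 array. Each gene is represented by its brightest probe set. Precision is limited by the single array per condition. Members, groups and lists were chosen with earlier results of these data known. All members are named, and in the 5 context lists up to 4 genes that differed by at least 1.5-fold with a signal of at least 100. Other named genes were chosen after their values were seen. Alternatives were other floors, scalings, probe set choices and thresholds, with a loess span of 0.3. The calculation was tested on a MYC siRNA array simulated from the control array with known differences. That simulation held no trend of the ratio with signal, so it cannot speak to this trend. Python 3.11.15, numpy 2.4.6, pandas 2.3.3, statsmodels 0.14.6 and matplotlib 3.10.9 were used.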

Additional observations from a re-analysis of the deposited data

How the results depend on the processing

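The medians of the CCT, HSP70 and HSP90 groups and of all members stayed below 0 in each of 10 alternatives, with ranges of -0.54 to -0.39, -0.40 to -0.37, -0.37 to -0.21 and -0.41 to -0.32. That of prefoldin ranged from -0.18 to 0.01, turning above 0 after quantile normalization, and that of the HSP90 system was -0.34 as reported and -0.21 after loess. The number of members lower by at least 1.5-fold, 3 as reported, was 1 after loess on mean signal and 0 of 19 without probe sets that can bind several transcripts. It was 21 at a log2 threshold of -0.32 and 0 at 2-fold. The number of member probe sets among the DEGs, 0 as reported, was 1 with a floor of 25 and 1 with no floor and 1 added to each signal, and 6 at a threshold of 1.5-fold. Of 34 members, 31 kept their direction in every alternative run, the exceptions being HSPB1, UNC45A and VBP1. FKBP4 was at -0.08 without probe sets that can bind several transcripts, where only its dim probe set remains. The mean over a group in place of its median was added after the data were seen. No paired analysis was possible because there is 1 array per condition. Without replicates, neither the error between cultures nor the effect of leaving out an array can be given.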
